A study of Mus musculus with 24 samples.

Results

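The red cell membrane is held in shape by a protein skeleton, and 7 genes of this system were followed through the sites on their RNA that proteins protected from nuclease. Sptb encodes beta-spectrin, the long rod of the skeleton, and Ank1 encodes ankyrin, which ties spectrin to the membrane. Epb41 (protein 4.1) strengthens the spectrin–actin junction, and Epb42 (protein 4.2) binds the band 3–ankyrin complex. Slc4a1 (band 3, the anion exchanger), Gypc (glycophorin C) and Rhag (the Rh-associated glycoprotein) span the membrane and serve as its anchoring points. Production of these proteins during erythroid maturation is a textbook feature of red cell formation, and inherited defects in several of them cause spherocytic or elliptocytic anaemia.

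The cells were MEL cells, a murine erythroleukemia line grown in suspension, collected without DMSO (day 0) and after 2 or 4 days with 2% DMSO, which induces erythroid differentiation. In protein interaction profile sequencing (PIP-seq), formaldehyde-fixed whole-cell extract was digested with a nuclease of single-stranded RNA (ssRNase, RNaseONE) or of double-stranded RNA (dsRNase, RNase V1), either while proteins were still bound (footprinting libraries) or after their removal (structure-only libraries). This gave 12 groups, defined by day, nuclease and the presence of protein, with 2 biological replicates each and 24 libraries in all. A protein-protected site (PPS, here "site") is a stretch with more reads in footprinting than in structure-only libraries, and the authors merged the calls of a day into 1 list with a name field that gives the nuclease and replicate of every call.

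Members were found as the sites that overlapped one of the 7 gene bodies on the same strand by 1 nt or more in the mm10 genome. Of 460777 sites in the 3 lists, 2190 did so: 264 of 138689 at day 0, 776 of 169575 at day 2 and 1150 of 152513 at day 4. Sites of 20 to 40 nt, a size class that ribosomes also leave and that the study set aside, were kept out of the coverage values. That left 217, 588 and 979 sites on the 7 genes. Coverage is the percentage of a gene's exonic or intronic nucleotides that lay inside a site, where exonic means inside an exon of any annotated transcript of the gene. A day's value uses all its calls, and a replicate's value uses the sites that held a call of that replicate. A day's value is thus never below that of its replicates. A range over pairs of replicates is therefore not an interval around the difference with all calls, which can lie outside it.

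The 2 replicates of a day share merged coordinates, so their spread understates the error between cultures. With 2 replicates against 2, an exact two-sided permutation test cannot give a p-value below 0.333, and no test was run. Instead, a gene was counted as higher at a later day when both its replicates lay above both day 0 replicates, and such counts are set beside the same count over protein-coding genes with a site. RNA level and read depth are not in the lists. More RNA, more protection of the same RNA and a larger share of differentiating cells in the culture therefore cannot be told apart.

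One pair of call sets stood apart. At day 0, 66.8% of the ssRNase replicate 2 calls lay on the plus strand, and at day 4 the ssRNase replicate 2 calls were at 43.4%, against 49.8% to 51.9% in the other 10 call sets. Slc4a1, Sptb, Epb41, Epb42 and Gypc lie on the minus strand, which was short of calls in that day 0 set, and Ank1 and Rhag lie on the plus strand. Results were therefore also computed without the ssRNase replicate 2 calls of every day. As a check of the cell type, exons of the erythroid genes Gata1, Klf1, Tal1, Epor and Alas2 held sites at every day, with coverage from 11.9% to 58.4%. This cannot check the day, nuclease or replicate labels. The T cell, liver, muscle and epithelial genes Cd3e, Alb, Myod1 and Cdh1 had no exonic site, which does not show that they lacked RNA, since Actb (beta-actin), used by every cell, had no site either.

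Sequences of 1 replicated coding site per gene are shown as examples. They are the highest-scoring sites of 41 to 300 nt that lay wholly inside a coding exon and held calls of both replicates, written 5′ to 3′ on the strand of the gene from the GRCm38 reference, the assembly that mm10 names. Capitals mark nucleotides that also lay inside a day 0 site, so that lower case is protection seen only after induction. The score is the deposited enrichment value. Its lowest value was 5.4 among sites of 1 call and 10.8 among sites of 2 calls, so it grows with the number of merged calls. Sites across an exon edge were left out by this rule, among them higher-scoring ones in Sptb (64.63, day 4), Epb41 (63.1, day 4) and Rhag (37.69, day 0). No sequence is shown for Gypc.
Slc4a1, day 4, chr11:102361141-102361254, minus strand, coding nt 23 to 136 of 2790, score 15.17: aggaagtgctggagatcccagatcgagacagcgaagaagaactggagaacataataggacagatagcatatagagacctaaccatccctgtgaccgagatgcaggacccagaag
Sptb, day 2, chr12:76606331-76606474, minus strand, coding nt 4614 to 4757 of 6990, score 35.65: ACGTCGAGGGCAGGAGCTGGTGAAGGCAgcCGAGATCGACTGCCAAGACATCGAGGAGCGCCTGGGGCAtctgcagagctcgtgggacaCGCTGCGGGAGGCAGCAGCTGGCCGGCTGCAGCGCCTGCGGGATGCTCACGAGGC
Ank1, day 2, chr8:23114824-23114935, plus strand, coding nt 3127 to 3238 of 5724, score 35.7: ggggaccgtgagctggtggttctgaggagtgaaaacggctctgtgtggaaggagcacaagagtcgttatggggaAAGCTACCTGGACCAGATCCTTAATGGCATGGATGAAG
Epb41, day 0, chr4:132006977-132007135, minus strand, coding nt 297 to 455 of 2610, score 42.7: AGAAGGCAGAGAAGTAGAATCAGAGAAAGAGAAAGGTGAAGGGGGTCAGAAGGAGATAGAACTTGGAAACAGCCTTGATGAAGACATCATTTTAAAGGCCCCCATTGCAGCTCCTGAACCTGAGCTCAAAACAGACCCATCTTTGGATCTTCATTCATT
Epb42, day 4, chr2:121029052-121029151, minus strand, coding nt 555 to 654 of 2076, score 16.74: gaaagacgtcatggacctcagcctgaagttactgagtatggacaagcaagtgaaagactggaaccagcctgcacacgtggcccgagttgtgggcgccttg
Rhag, day 2, chr17:40834663-40834753, plus strand, coding nt 1006 to 1096 of 1317, score 25.24: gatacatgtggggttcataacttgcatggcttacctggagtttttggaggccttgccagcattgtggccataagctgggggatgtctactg

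The choice among candidates was wide for Sptb and Ank1, with 30 and 26 replicated coding sites over the 3 days, and narrow for Slc4a1 with 2 and Epb42 with 1. In Sptb, 122 of the 144 nt shown had already been protected at day 0, and in Ank1 38 of 112 nt had been. The Epb41 stretch is itself a day 0 site. Slc4a1 and Epb42 had no site of any length at day 0, so their stretches could hold no capital. The Rhag stretch, a day 2 site, held no nucleotide of a day 0 site. Coding coverage of Rhag with all calls was 60.4% at day 0 and 24.2% at day 2. Its lower case therefore does not stand for a gain over the whole gene.

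Exonic coverage was higher at day 4 than at day 0 in 6 of the 7 genes, with no overlap between the replicates, and Rhag was the exception. The same was true of 30.8% of the 9550 protein-coding genes with an exonic site, and the opposite, lower at day 4, was true of 25.4% of them and of 0 of the 7. The 7 genes had a median exonic coverage of 13.2%, 17.55% and 40.3% on days 0, 2 and 4. Over all genes with an exonic site the medians were 6.0%, 5.59% and 6.02%. The median difference between day 4 and day 0 was 20.9 percentage points for the 7 genes, with a range of 14.1 to 21.5 over the 4 pairs of replicates, and 0 for all genes.

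**Figure D1:**
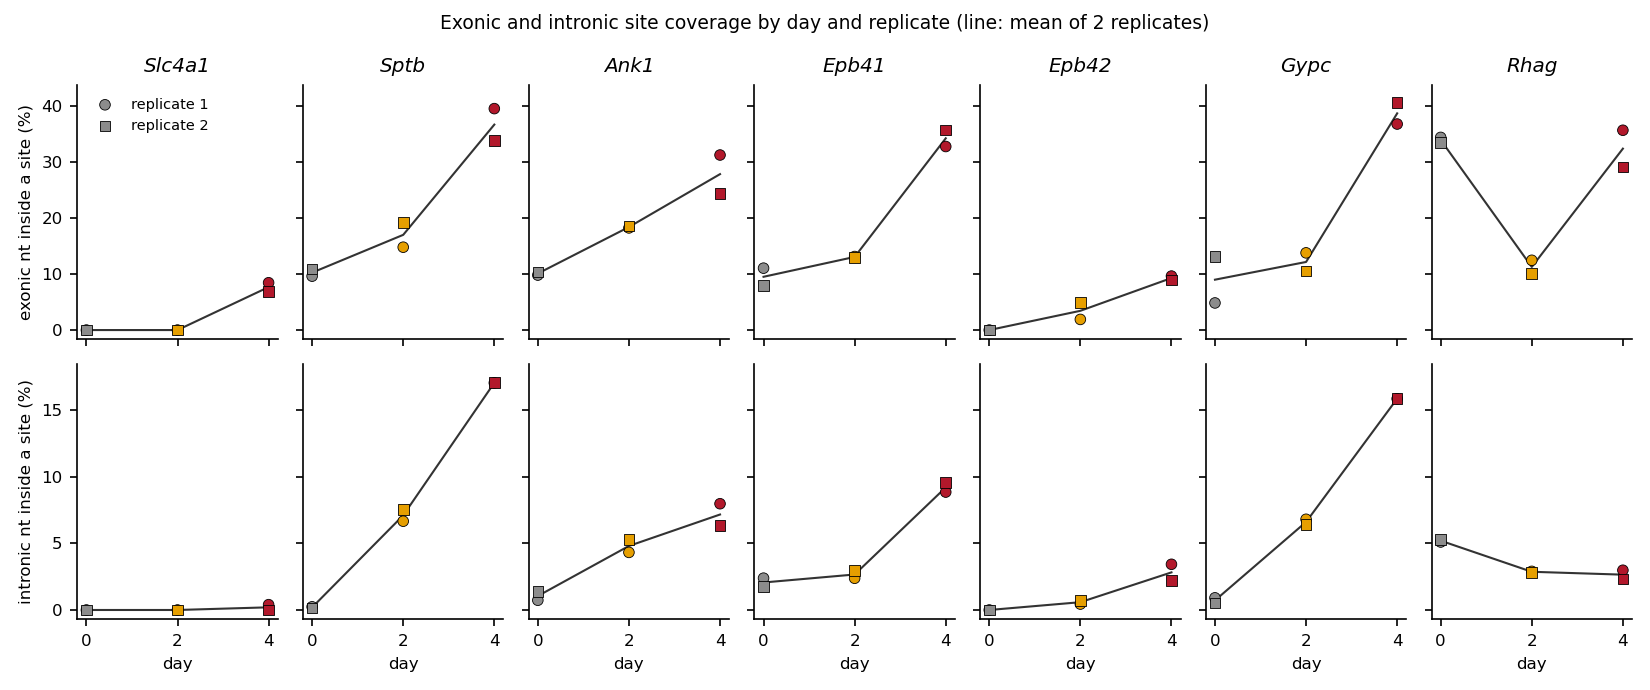
Exonic (upper row) and intronic (lower row) nucleotides inside a site, in percent, by day for each gene; circles are replicate 1, squares replicate 2 and the line is their mean. Both day 4 replicates lie above both day 0 replicates in the exons of every gene but Rhag, whose exons dip at day 2.

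Sptb, the spectrin gene (ENSMUSG00000021061.15, chr12:76580488-76710547), had exonic coverage of 9.64% and 10.9% in the day 0 replicates, 14.8% and 19.2% at day 2, and 39.6% and 33.9% at day 4. The days did not overlap and formed a rising order. Coverage with all calls was 13.5%, 23.6% and 43.2%. The difference between day 4 and day 0 was 29.7 points with all calls and 22.99 to 29.97 points over the pairs of replicates. Only 0.628% of protein-coding genes with an exonic site had a larger difference. The parts of the annotated exons that held the sites differed between days. The coding sequence was covered to 21.8% at day 0 and 44.5% at day 4, whereas the 3′ UTR was covered to 1.2% and 46.6%. This 3′ UTR value pools the 3′ ends of both annotated coding transcripts. The later end lies in a stretch, described below, that held no site at day 0. The values do not show sites moving within one form of the message.

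Ank1, the ankyrin gene (ENSMUSG00000031543.18, chr8:22974844-23150497), had replicate values of 9.83% and 10.4% at day 0, 18.3% and 18.6% at day 2, and 31.3% and 24.5% at day 4. The days were again fully separated. With all calls the difference between day 4 and day 0 was 20.9 points (14.1 to 21.5 over the pairs of replicates). Its coding sequence was covered to 24.02%, 32.1% and 42.9% on the 3 days, and its 3′ UTR to 12.7%, 34.2% and 43.6%.

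Epb41, the protein 4.1 gene (ENSMUSG00000028906.16, chr4:131923413-132075321), had 11.1% and 7.99% at day 0, 13.15% and 13.02% at day 2, and 32.8% and 35.8% at day 4. Day 2 lay just above day 0, and most of the difference lay between day 2 and day 4. Parts of the message moved apart at day 2. By day, coding coverage was 26.9%, 16.1% and 46.7%, and 5′ UTR coverage was 15.5%, 35.9% and 44.0%. The 3′ UTR, which makes up 9399 of its 15942 exonic nt, was covered to 8.31%, 16.2% and 38.2%. The highest score on any of the 7 genes, 141.57 from 7 calls at day 4, belonged to a site of 309 nt in the 5′ UTR of Epb41 at chr4:132071418-132071726.

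Epb42, the protein 4.2 gene (ENSMUSG00000023216.13, chr2:121017891-121037072), had no site of any length at day 0. At day 2 its exonic coverage was 1.9% and 4.98% in the replicates, and at day 4 it was 9.66% and 8.95%. None of its 9 day 2 sites held calls of both replicates, and 5 of its 16 day 4 sites did. Most exonic sites lay in the coding sequence, which was covered to 13.2% at day 2 and 27.8% at day 4. The 3′ UTR was at 0 and 2.16%, and the 5′ UTR was at 9.39% at day 2 and 0 at day 4.

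Slc4a1, the band 3 gene (ENSMUSG00000006574.15, chr11:102348824-102366203), was without a site of any length at day 0 and day 2. At day 4 it held 12 sites, or 7 without the 20 to 40 nt class, and its exonic coverage was 8.47% and 6.91% in the replicates. Of the 7 sites, 4 held calls of both replicates. All 7 touched an exon, and 1 also reached into an intron. Its highest-scoring site, with a score of 17.62, lay in the 3′ UTR at chr11:102350044-102350135. The lists hold only sites past the authors' threshold of a 5% false discovery rate, so a gene with no listed site may still have been transcribed.

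Gypc, the glycophorin C gene (ENSMUSG00000090523.2, chr18:32528322-32560034), differed most in its exons. Its replicates were at 4.85% and 13.2% at day 0, 13.8% and 10.6% at day 2, and 36.9% and 40.7% at day 4. Day 0 and day 2 overlapped, and day 4 stood clear of both. The difference with all calls between day 4 and day 0 was 33.8 points (23.7 to 35.8 over the pairs), and 0.471% of genes exceeded it. The 3′ UTR, which makes up 1683 of its 2331 exonic nt, was covered to 15.7%, 24.3% and 53.95% on the 3 days.

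Rhag, the Rh-associated glycoprotein gene (ENSMUSG00000023926.8, chr17:40811126-40840754), followed another course. Exonic coverage was 34.5% and 33.6% in the day 0 replicates, 12.5% and 10.1% at day 2, and 35.7% and 29.2% at day 4. Day 2 lay below both other days without overlap, and day 0 and day 4 overlapped. It had the highest exonic coverage of the 7 genes at day 0, 40.6% with all calls. The difference between day 2 and day 0 was -22.3 points, ranging from -24.4 to -21.1 over the pairs.

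By day 2, the exons of Sptb, Ank1, Epb41 and Epb42 were higher than at day 0 without overlap of the replicates, 4 of the 7 genes beside 22.3% of all genes. Rhag alone was lower, beside 30.4% of all genes. With ssRNase calls alone, the range over the pairs lay above 0 in each of the 4 higher genes. With dsRNase calls alone it did so only in Ank1 (0.858 to 8.38 points). The dsRNase range was -1.34 to 4.54 points in Sptb, -0.615 to 0.816 in Epb41 and 0 to 0.812 in Epb42. The replicates held 63917 and 57986 ssRNase calls at day 0 and 75500 and 91091 at day 2. The part of this in the day 2 values was not tested. The median difference of the 7 genes between day 2 and day 0 was 4.65 points (1.9 to 4.98 over the pairs) against -0.45 points over all genes. Between day 2 and day 4, all 7 genes were higher at day 4 without overlap, Rhag included, beside 33.8% of all genes.

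The day 4 pattern was seen with the calls of each nuclease. A merged site with calls of both nucleases counts in full for each, so the 2 results are not independent. For Slc4a1 the ssRNase result rests on 2 calls in replicate 1 and 1 call in replicate 2 at day 4. Within ssRNase calls alone, the exons of the same 6 genes were higher in both day 4 replicates than in both of day 0 (22.2% of all genes), and within dsRNase calls alone so were they (27.2%). The sizes differed by gene. Gypc differed by 9.57 to 11.6 points over the ssRNase pairs and by 21.7 to 36.85 points over the dsRNase pairs. For Sptb the ranges were 7.89 to 13.9 points with ssRNase and 16.5 to 23.45 points with dsRNase. The dsRNase range lay above the ssRNase range in these genes and also in Epb41 (17.6 to 20.9 against 11.7 to 15.7 points) and Slc4a1 (5.46 to 8.34 against 1.45 to 2.0 points). The lists as a whole moved the same way: the replicates held 63917 and 57986 ssRNase calls at day 0 and 55143 and 54229 at day 4, against 34589 and 41265 dsRNase calls at day 0 and 68632 and 52174 at day 4. Its part in these differences was not tested. Ank1 showed overlapping ranges, 9.76 to 17.1 points with ssRNase and 6.03 to 13.5 points with dsRNase. So did Epb42, with 5.69 to 6.48 points with ssRNase and 4.39 to 5.89 points with dsRNase. In both genes the ssRNase range reached higher. In the dsRNase call sets, Gypc had the widest replicate spread at day 0, with 0 in replicate 1 and 9.35% in replicate 2.

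Rhag separated the nucleases. With ssRNase its exonic coverage was 10.7% and 10.3% in the day 0 replicates, 3.89% in both day 2 replicates, and 3.63% and 0 at day 4. With dsRNase it was 28.2% and 29.2% at day 0, 12.5% and 6.20% at day 2, and 35.7% and 29.2% at day 4. The ssRNase values were low from day 2 on, and the dsRNase values were lowest at day 2. Rhag has 2339 exonic nt, and its day 2 ssRNase value rested on 1 site of 91 nt, chr17:40834663-40834753. The later ssRNase values of Rhag exons therefore rest on very little sequence. Over the whole lists, the share of sites with a dsRNase call was also lowest at day 2, at 44.5%, 33.8% and 64.3% on the 3 days, and its part in the Rhag values was not tested. In the coding sequence, ssRNase coverage with both replicates together was 30.8%, 6.91% and 6.45% on the 3 days, and dsRNase coverage was 48.0%, 24.2% and 49.4%. A strong site across the end of the coding sequence held dsRNase calls only. It was at chr17:40839766-40839936 with a score of 34.24 at day 0 and at chr17:40839761-40839927 with a score of 40.83 at day 4, while at day 2 a site of 58 nt with 1 call, chr17:40839745-40839802, lay there.

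**Figure D2:**
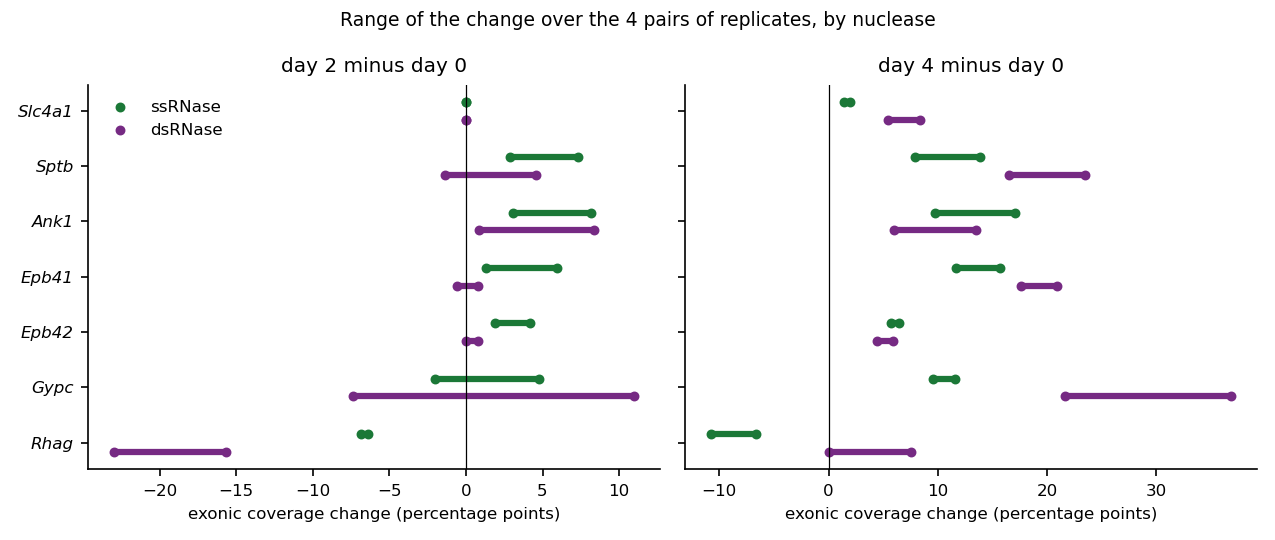
Difference in exonic coverage from day 0, in percentage points, at day 2 (left) and day 4 (right), as the range over the 4 pairs of replicates for ssRNase (green) and dsRNase (purple) calls. At day 4 every range but those of Rhag lies above 0, and the ssRNase range of Rhag lies from -10.7 to -6.67.

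The strand imbalance was followed in the same values. On the minus strand, 36.1% of all genes with an exonic site were higher at day 4 without overlap, and 5 of the 5 genes on that strand were. Without the ssRNase replicate 2 calls, 6 of the 7 genes were still higher at day 4, and the median difference was 20.9 points. The difference was then 30.0 points in Sptb, 20.9 in Ank1, 25.5 in Epb41, 12.1 in Epb42, 37.6 in Gypc and 8.47 in Slc4a1. At day 2 the median difference was 2.71 points without these calls, against 4.65 with them.

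Intronic coverage was higher at day 4 than at day 0 without overlap in 5 of the 7 genes, Sptb, Ank1, Epb41, Epb42 and Gypc, beside 26.9% of the 7333 genes with an intronic site. It was lower in Rhag, beside 24.4% of those genes. For the 7 genes the intronic medians by day were 0.912%, 4.24% and 9.29%, against 0.495%, 0.651% and 0.497% over all genes. By day 2, the introns of Sptb, Ank1, Epb42 and Gypc were higher without overlap (26.9% of all genes) and those of Rhag were lower (18.7%). Between day 2 and day 4, 5 of the 7 were higher (19.5%).

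In Sptb, intronic coverage was 0.238% and 0.149% in the day 0 replicates, 6.66% and 7.54% at day 2, and 17.0% and 17.1% at day 4. Gypc had 0.912% and 0.524% at day 0, 6.81% and 6.4% at day 2, and 15.85% and 15.87% at day 4. These 2 genes had the 2 largest intronic values of the 7 at day 2 and day 4. Only 0.423% of genes had a larger intronic difference between day 4 and day 0 than Sptb, and 0.491% than Gypc. Ank1 had 0.732% and 1.37% at day 0 and 7.97% and 6.36% at day 4. Epb41 had 2.39% and 1.74% at day 0, 2.38% and 2.95% at day 2, and 8.85% and 9.55% at day 4, so that its introns overlapped between day 0 and day 2 and stood apart at day 4. Rhag had 5.1% and 5.3% at day 0, 2.90% and 2.84% at day 2, and 2.98% and 2.32% at day 4.

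On each day with sites, exonic nucleotides were more densely covered than intronic ones in each of the 7 genes. In Sptb the ratio of exonic to intronic coverage was 35.9, 2.46 and 2.11 on the 3 days, and in Gypc it was 14.4, 2.1 and 2.44. In Epb41 it was 4.17, 4.39 and 3.38. Rhag went the other way, with 5.51, 4.31 and 9.97. Pooled over the 7 genes, sites that touched an exon made up 44.2% of sites at day 0 (96 of 217, Wilson 95% interval 37.8 to 50.9, which covers counting error only), 27.4% at day 2 (interval 23.9 to 31.1) and 25.4% at day 4 (interval 22.8 to 28.3). The replicates gave 47.2% and 46.6% at day 0, and 26.7% and 25.6% at day 4. Over all protein-coding genes the share was 58.1%, 52.7% and 56.6%. Each nuclease showed the lower share, from 35.4% to 20.7% with ssRNase and from 68.2% to 29.4% with dsRNase. The pooled share is weighted by the genes with most sites. Between day 0 and day 4 it went from 25 of 32 sites to 65 of 329 in Sptb and from 31 of 65 to 62 of 245 in Ank1. In Gypc it went from 4 of 8 to 12 of 72, and in Epb41 only from 25 of 76 to 78 of 282. Rhag rose from 11 of 36 to 13 of 28. Slc4a1 and Epb42, without day 0 sites, had 7 of 7 and 12 of 16 at day 4.

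The spread of the intronic sites over the introns differed by gene. At day 4 a site lay in 32 of 46 introns of Ank1, 20 of 25 of Epb41 and 3 of 3 of Gypc. It lay in 6 of 14 introns of Epb42, 5 of 9 of Rhag and 1 of 24 of Slc4a1. In Sptb, 6 of 35 introns held a site at day 0, 19 at day 2 and 27 at day 4. Its first and longest intron, of 59956 nt, was covered to 0.242%, 9.95% and 21.3% on the 3 days. The first intron of Gypc, which holds 82.9% of its intronic nt, was covered to 1.1%, 9.85% and 21.8%. Each gene body was also cut into 10 equal bins, exons and introns together. Gypc and Epb41 were then densest in the 5′ bin at day 4, with 39.6% and 27.2%. Sptb was densest in the 3′ bin, with 32.2%.

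**Figure D3:**
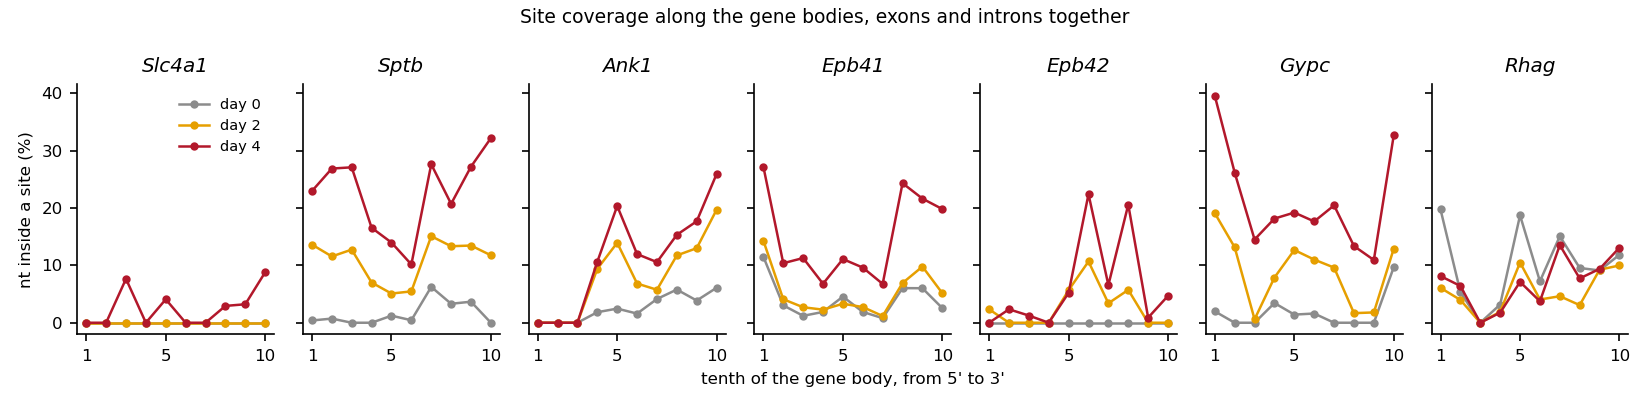
Percent of nucleotides inside a site in each of 10 equal bins of the gene body from 5′ to 3′, exons and introns together, at day 0 (grey), day 2 (orange) and day 4 (red). Ank1 has no coverage in its first 3 bins on any day, and the day 4 lines of Sptb, Epb41 and Gypc lie above day 0 in every bin.

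The end of Sptb showed the same course. One annotated coding transcript of Sptb ends 15642 nt before the other, so in the annotation the stretch chr12:76580488-76596129 lies in the longer form alone. Most of the stretch is intron, with introns of 8539 and 3244 nt. Whether the RNA with these sites was the longer form was not tested. The stretch held no site at day 0, 31 sites at day 2 and 64 at day 4. Its coverage was 10.6% and 10.96% in the day 2 replicates and 28.6% and 25.9% in the day 4 replicates. With all calls it was 34.0% at day 4, and the gene body before it was at 20.97%.

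Ank1 is transcribed from several promoters that differ between tissues, and its sites began next to one group of annotated starts. The first 60301 nt of the annotated gene body held no site of any length at any day, whereas the remaining 115353 nt held 77, 249 and 300 sites. The first site, at day 4, began at chr8:23035145. This is 46 and 17 nt downstream of a pair of annotated transcript starts at 23035099 and 23035128, and 86 nt upstream of another at 23035231. At day 2 the first site began 60484 nt into the gene, and at day 0 64118 nt into it. The intron that follows this start group, chr8:23035246-23058258, was covered to 3.0%, 16.4% and 21.7% on the 3 days, and the intron before it, of 59837 nt, to 0 on each. The lists do not show which starts were used, only where sites were called.

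The gene for miR-486, a microRNA abundant in red cells and muscle, lies in an intron near the 3′ end of Ank1 at chr8:23142555-23142682 on the same strand. A site over the 5′ part of this gene was found on each day. It was at chr8:23142566-23142615 at day 0 with a score of 12.22, at chr8:23142563-23142614 at day 2 with 16.79, and at chr8:23142552-23142614 at day 4 with 27.72. Both ssRNase replicates called it at day 0 and day 4, and at day 2 both calls were of replicate 2, one with each nuclease. At day 2 a further site of 1 call, chr8:23142616-23142663, followed it directly. Ank1 and Mir486 share these nucleotides, so the sites cannot be assigned to one of them. Without sites that overlap another gene on the same strand, the median intronic difference of the 7 genes was 7.57 points, against 7.65 with them.

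In Epb41, an alternative exon of 63 nt encodes part of the spectrin–actin binding domain, and its inclusion in late erythroid cells is a textbook case of regulated splicing. RBFOX proteins, which bind the word TGCATG and act on it from the intron that follows. The annotation holds 1 coding exon of that length, chr4:131962924-131962986, in 8 of the 13 coding transcripts that span it. A site covered the end of this exon and the start of the next intron on each of the 3 days. Below, exon letters are in capitals and intron letters in lower case, so the 5′ splice site lies where the case turns.
Epb41, day 0, chr4:131962880-131962954, score 27.83: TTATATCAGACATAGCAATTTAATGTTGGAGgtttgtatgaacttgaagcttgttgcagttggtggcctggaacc
Epb41, day 2, chr4:131962848-131962934, score 14.22: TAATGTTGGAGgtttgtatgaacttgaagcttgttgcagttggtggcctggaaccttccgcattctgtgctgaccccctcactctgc
Epb41, day 4, chr4:131962879-131962981, score 35.49: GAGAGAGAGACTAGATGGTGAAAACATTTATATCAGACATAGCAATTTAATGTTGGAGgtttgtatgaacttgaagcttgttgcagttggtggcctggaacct

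The site took in 31 nt of the exon at day 0, 11 nt at day 2 and 58 nt at day 4, and reached 44, 76 and 45 nt into the intron. Day 0 and day 4 sites each held 3 calls (both ssRNase replicates and dsRNase replicate 1), whereas the day 2 site rested on 1 call, of ssRNase replicate 2. At day 4 there were 2 further sites within 500 nt of the exon. One lay 400 nt downstream (score 22.1, 3 calls) and the other 241 nt upstream (score 6.82, 1 call).

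The word TGCATG was searched on the sense strand within 500 nt of this exon. It occurred 3 times in the intron after the exon, starting 91, 101 and 133 nt past the exon end, and 0 times in the exon or before it. None of the 3 copies lay inside a site of any day. They are shown with 12 nt on either side and the word in capitals.
chr4:131962828-131962833: tgcccttgggttTGCATGccactgcatgag
chr4:131962818-131962823: tttgcatgccacTGCATGagagacgtttag
chr4:131962786-131962791: ttaaactgctttTGCATGgtggtaaacgtg

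**Figure D4:**
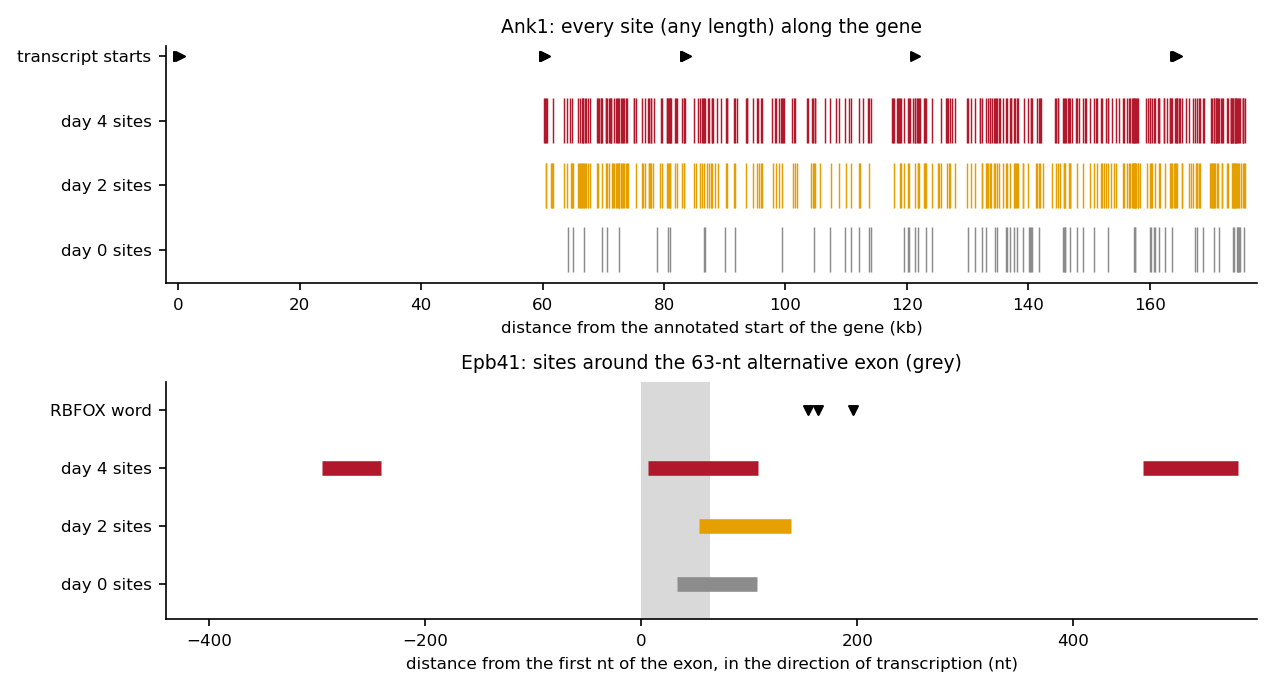
Upper panel, every site of Ank1 (bars) by day against the distance in kb from the annotated gene start, with the starts of coding transcripts (triangles); the first 60301 nt hold no site. Lower panel, sites around the 63-nt exon of Epb41 (grey) against the distance in nt from its first nucleotide, with the 3 copies of the RBFOX word; a site crosses the exon end on each day.

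Sites seen at day 0 mostly recurred. Of the 217 day 0 sites of the 7 genes, 85.3% overlapped a day 4 site (Wilson 95% interval 79.9 to 89.4, counting error only). Of the day 2 sites, 77.6% overlapped one (74.0 to 80.7, counting error only). In the whole lists these shares were 46.5% and 47.7%. Genes with denser coverage at day 4 give more overlap, and this was not separated from recurrence of the same sites. Sites of the 3 days joined into 1081 regions. Of these, 467 held sites of day 4 alone, 291 of days 2 and 4, 121 of every day and 19 of day 0 alone. In Ank1 and Epb41, 58 of 62 and 66 of 71 regions with a day 0 site also had a day 4 site. In Rhag it was 22 of 34.

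The sites of the 7 genes were longer than those of the lists. Their median length on days 0, 2 and 4 was 67, 63 and 72 nt, against 63, 58 and 62 nt. Sites with calls of both replicates made up 34.6%, 36.9% and 48.7% on the 3 days, against 30.8%, 30.8% and 35.75% in the lists. Median scores were 8.35, 9.98 and 12.2, against 8.35, 9.48 and 8.35. Sites of 1 call made up 44.9% at day 4, against 58.4% in the list.

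Base composition was read in windows around the sites. In windows of 60 nt centred on each site, exonic sites of the 7 genes had a median GC content of 52.5%, 53.3% and 51.7% on the 3 days, and those of all protein-coding genes 48.3%, 50.0% and 48.3%. Windows of intronic sites were at 45.0%, 48.3% and 46.7%, against 43.3%, 45.0% and 43.3%. At day 4 the exonic site windows were at 55.0% in Sptb, whose exons have a GC content of 56.3%, and at 54.2% in Ank1, whose exons are at 56.1%. Epb42 went the other way, with 51.7% in its site windows and 47.1% in its exons.

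Short words known from RNA-binding proteins were counted in the same windows on the sense strand, pooled over days. TGCATG stood in 13 of 506 exonic windows (2.57%, against 1.53% of all exonic windows) and in 26 of 1278 intronic windows (2.03% against 2.11%). By day, the exonic counts were 3 of 96, 6 of 161 and 4 of 249 windows. These are 3.12%, 3.73% and 1.61%, against 1.56%, 1.5% and 1.53% of all exonic windows, so the day 4 share was close to that of all genes. The Pumilio word TGTANATA stood in 0 exonic windows (0.715% of all exonic windows) and 4 intronic windows (0.313% against 0.808%). The AU-rich word TATTTAT stood in 2 exonic windows (0.395% against 0.382%) and 5 intronic windows (0.391% against 0.439%), and the CELF-type word GTGTG in 8.89% of exonic and 10.3% of intronic windows (8.39% and 10.9% of all windows). Windows of the 3 days overlap, so these are counts of sites, not of independent sequences.

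A list of 27 further genes of the red cell membrane and its skeleton gave a mixed picture. An exonic site was present in 24 of them. Of these, 14 were higher at day 4 than at day 0 without overlap of the replicates (30.8% of all genes), 4 were lower (25.4%) and 6 overlapped, with a median difference of 5.49 points. Rhd and Cd47 had some of the largest differences. Rhd, the Rh antigen partner of Rhag, had exonic coverage of 0 in both day 0 replicates and of 24.7% and 30.1% at day 4. Cd47, an inhibitory signal to phagocytes and part of the Rh complex, was at 4.59% and 6.53% at day 0 and 30.2% and 26.8% at day 4. Both were separated between these days.

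The largest negative differences were in Add3 and Kcnn4. Add3, an adducin that caps actin filaments, had 15.7% and 21.2% at day 0 and 5.50% and 2.62% at day 4. Kcnn4, the calcium-gated potassium channel of the red cell, had 7.82% and 7.72% at day 0 and 0 in both replicates at day 4. Among the genes without an exonic site were Actb and Bcam, for which no site of any length was listed on any day.

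**Figure D5:**
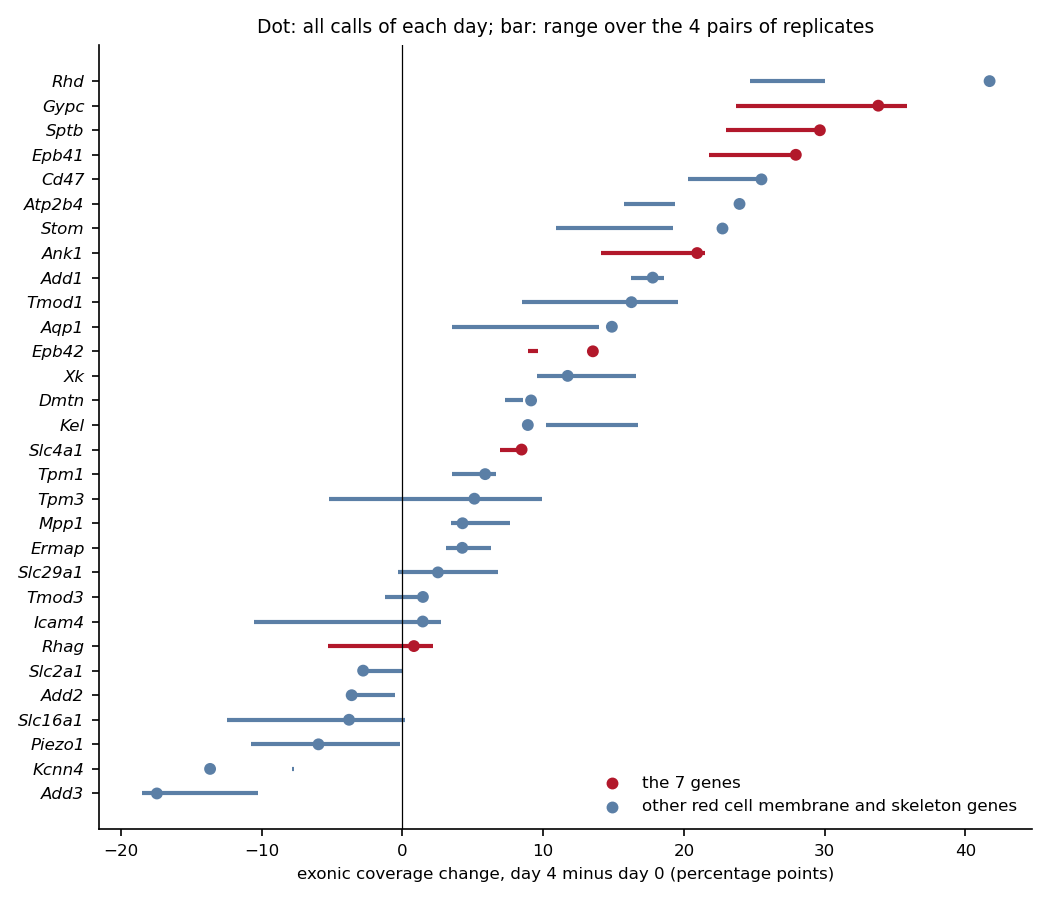
Difference in exonic coverage between day 4 and day 0, in percentage points, for the 7 genes (red) and other membrane and skeleton genes with an exonic site (blue); dots use all calls of each day and bars give the range over the 4 pairs of replicates. The dots run from -17.5 in Add3 to 41.7 in Rhd, and 5 of the 7 genes lie above 10.

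Of 13 paralogs used mainly in other tissues, 7 held an exonic site. Of these, 5 were higher (30.8% of all genes) and 1 was lower (25.4%) at day 4 without overlap, with a median difference of 1.31 points. Sptan1, the non-erythroid alpha-spectrin, was at 2.93% and 5.81% in the day 0 replicates and 10.6% and 6.56% at day 4. Epb41l2, a protein 4.1 homologue, was at 1.83% and 1.92% at day 0 and 3.39% and 4.17% at day 4.

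Over the 12 call sets (3 days, 2 nucleases, 2 replicates), the mean exonic coverage of the 7 genes lay between 4.22% (day 0, ssRNase replicate 2) and 22.7% (day 4, dsRNase replicate 1). The comparison took in 2289 protein-coding genes, those with 500 or more exonic nt and 5% or more mean coverage, and the pattern most like this mean was that of Purb (Pearson r = 0.971), followed by Klhl11 (0.969), Syap1 (0.966), Ell2 (0.963) and Cd47 (0.959). The call sets of a day share merged coordinates, and these values describe likeness only.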

How the data were processed

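PIP-seq reads were, per the study's methods and the labels, trimmed with cutadapt 1.2.1, collapsed, aligned strand-specifically to mm10 with TopHat2 2.0.10 and freed of PCR duplicates. The authors called PPSs with a modified CSAR package (Poisson test, 5% false discovery rate) and deposited 1 list per day with an enrichment score, whose scaling was not given in the sources used here. The score was used only to rank and filter sites.

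Call names were matched to sample titles, which define the groups. Genes came from GENCODE M21. Coverage, per-replicate values and ranges over the 4 pairs of replicates were computed in Python 3.11.15 with numpy 2.4.6, pandas 2.3.3 and scipy 1.17.1. The coverage code was tested on simulated data. The lists hold no read depth per library, and no test was run.

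The 7 genes and all lists were chosen with earlier results of these data known. Named genes are the 7 genes, the 3 largest positive and 2 largest negative differences of the wider list, the 2 largest paralog differences and the 5 most similar genes. One gene that this rule names, and some genes of the lists, are not reported here. Alternatives were other length, score, replicate, nuclease and annotation filters. Leaving out the ssRNase replicate 2 calls was chosen after seeing the data.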

Additional observations from a re-analysis of the deposited data

Results flagged for a closer look

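In Rhag the nucleases moved opposite ways between day 2 and day 4, in every pair of replicates, and the difference was not tested. The ssRNase exonic value rested on 1 site of 91 nt at day 2. At day 4 it was 3.63% in replicate 1 and 0 in replicate 2, so the ssRNase side of the exonic contrast rests on very little sequence. In its exons the mean difference was -2.07 points with ssRNase (-3.89 to -0.257) and 23.1 points with dsRNase (16.7 to 29.5), a gap of 25.2 points. In its introns it was -0.645 points with ssRNase and 1.28 points with dsRNase, a gap of 1.93 points. The whole lists moved the same opposite ways between these days, from 75500 and 91091 ssRNase calls in the replicates to 55143 and 54229, and from 41323 and 20927 dsRNase calls to 68632 and 52174, and the part of this in the Rhag values was not tested.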

How the results depend on the processing

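Values below are in percentage points for the 7 genes, and the causes of their movements were not tested. The median exonic difference between day 4 and day 0 was 20.9 points as reported, 13.7 with ssRNase calls, 12.7 with dsRNase calls, 14.6 with sites called in both replicates and 5.43 with sites of 1 call, where 1 gene was higher without overlap in place of 6. The median exonic difference between day 2 and day 0 (4.65) was 9.51 with sites of all lengths, 2.50 with dsRNase calls, 1.97 with sites called in both replicates, 2.40 with sites of 1 call, 2.03 with a score of 10 or more and 2.71 without the ssRNase replicate 2 calls. The median intronic difference between day 4 and day 0 (7.65) was 5.83 with ssRNase calls, 5.07 with dsRNase calls, 4.585 with sites called in both replicates, 2.48 with sites of 1 call, 6.39 with equal numbers of top-scoring sites and 5.23 with a score of 10 or more. The share of sites that touched an exon (-18.8 points between day 0 and day 4) was -23.8 with all lengths, -14.7 with ssRNase calls, -38.8 with dsRNase calls, -26.99 with sites called in both replicates, -14.8 with sites of 1 call, -24.85 with a score of 10 or more, -23.4 without the ssRNase replicate 2 calls and -19.7 with exons of coding transcripts. Among differences whose replicates did not overlap, Rhag turned in sign in its introns between day 0 and day 4 with dsRNase calls, 1.081, and in its exons between day 0 and day 2 with sites of 1 call, 5.26. With 1 replicate left out, where a day's value is the mean of its remaining replicates' own values, the ranges were 14.4 to 21.2, 3.44 to 3.62 and 5.31 to 6.78 for the 3 medians, 6 to 7 for the number of genes higher at day 4, and -21.35 to -20.19 for the share. Of 280 single-gene differences under 10 settings, 9 differed in sign from the reported value. These were the 2 of Rhag above, the exonic difference of Rhag between day 0 and day 4 (0.812 as reported, with overlapping replicates), which was -5.3 with all lengths, -13.7 with ssRNase calls, -3.93 with sites called in both replicates and -4.75 with a score of 10 or more, the exonic difference of Gypc between day 0 and day 2 (4.38), which was -0.0858 with ssRNase calls, and the intronic difference of Epb41 between day 0 and day 2 (0.909), which was -0.0206 with dsRNase calls and -0.274 without the ssRNase replicate 2 calls. With 1 replicate left out, 4 of 112 single-gene differences differed in sign, 3 of that exonic difference of Rhag and 1 of that of Gypc. The site over the end of the Epb41 exon was present on 2 of 3 days with dsRNase calls or with sites called in both replicates. No paired analysis was possible because the results come from no test and nothing in the labels links a replicate of one day to a replicate of another.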
